A study of Xenopus laevis with 115 samples.

Results

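Ectoderm was compared between 2 kinds of Xenopus laevis nuclear-transfer (NT) embryos: those made with nuclei from CBP30-treated donors (11 libraries) and those made with nuclei from DMSO-treated donors (12 libraries). The 23 libraries were chosen by their sample titles from the 45 libraries of the CBP30 experiments, in a series of 115 samples. The donors were fertilised embryos kept from stage 12 to stage 18 at 23 °C in 40 µM SGC-CBP30 (CBP30) or in its solvent DMSO, and their endoderm gave the nuclei. The NT embryos are not labelled as treated themselves. Their ectoderm was taken at stage 11, as was that of 11 fertilised embryo libraries, called fertilised ectoderm here. All groups are labelled wild type. The work was done as 3 numbered experiments, with 3, 5 and 3 CBP30 libraries and 4, 3 and 5 DMSO libraries in experiments 1, 2 and 3. The labels do not say whether a library is 1 embryo, or which NT libraries share a donor or an egg clutch, so the p-values measure the spread between these libraries only.

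Nuclear transfer places the nucleus of a differentiated cell in an egg, whose contents reset the nucleus towards an early embryonic state. The reset can be incomplete, and genes of the donor cell type may stay on, or genes of the new cell type may stay too low, which is called memory of the donor state. CBP and p300 are related acetyltransferases that mark active genes on histones and carry a bromodomain, a module that binds acetylated lysine. SGC-CBP30 occupies that bromodomain. Ectoderm of the early frog embryo, the tissue that gives skin and nervous system, is far from endoderm, the tissue of the gut. Here the donor endoderm is of stage 18 and the ectoderm of stage 11, so tissue and stage cannot be told apart between them. The comparison asks whether treating the donor changed the expression reached after transfer.

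Messenger RNA was sequenced and counted per transcript. Expected counts, the estimated number of reads per transcript, summed to between 13473048 and 22682618 in the CBP30 libraries, between 12844241 and 24923622 in the DMSO libraries and between 10352221 and 24611268 in fertilised ectoderm. Levels are given in CPM, counts scaled to a common library depth (edgeR's cpm after TMM) and not to transcript length. The floor of 3 counts set for a transcript with no reads covers counting error only. The files give transcript identifiers that could not be paired with gene names, so no transcript is given a function here, and the tissue of the libraries could not be checked with marker genes. Xenopus laevis carries many genes as paired, similar copies, and how many reads were divided by estimate between such copies is not recorded. In these bulk samples fewer cells of a type and less RNA per cell cannot be told apart.

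No transcript passed edgeR's test across the 3 experiments as a whole with low counts filtered. With the experiment as block, this quasi-likelihood test in edgeR called 0 of 25668 transcripts (0%) at an adjusted p-value under 0.05. The lowest adjusted p was 0.218. At an unadjusted p under 0.05 there were 1504 transcripts (5.86%), 721 higher and 783 lower in CBP30 NT ectoderm. The median absolute log2 fold change was 0.11, and 298 transcripts (1.16%) differed by 1 log2 unit or more in either direction. The median standard error was 0.16, and 95.9% of transcripts had one under 0.5. The DESeq2 Wald test with the same block called 46 transcripts, 28 higher and 18 lower. With no filter on low counts edgeR called 7, 2 higher and 5 lower, and without single libraries it called 0 to 2. Without experiment 3 edgeR called 16 transcripts, and without experiment 2 it called 2.

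Most of the variation between the 23 libraries did not follow the treatment. Experiment accounted for 35% of the variance of log2 CPM, the difference between CBP30 and DMSO for 4.02%, and the difference of that effect between experiments for 7.51%. Libraries of the same treatment and experiment held the remaining 53.5%. Experiment took 9.09% of the degrees of freedom, the treatment term 4.55%, the interaction term 9.09% and libraries of the same treatment and experiment 77.3%. Since experiment held more variance than its share, the other terms together had to fall below theirs, and each of them did. Per degree of freedom, treatment and interaction each took slightly more variance than the spread between those libraries. Neither term was tested as a whole. The first and second principal components carried 21% and 16.2% of the variance, of which experiment accounted for 88.2% and 93.7%.

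The 2 higher and 2 lower transcripts with the smallest p-values among those of the same sign in all 3 experiments show what such differences look like. XBmRNA28227 was at 0.44 to 2.61 CPM in CBP30 libraries (median 1.16), against 0.058 to 0.787 CPM in DMSO libraries (median 0.248). All CBP30 libraries of experiments 2 and 3 lay above the DMSO libraries of their experiment, and in experiment 1 a CBP30 library at 0.672 CPM lay below a DMSO library at 0.787 CPM. Over all transcripts tested, the NT groups were without overlap, in either direction, for 5.67%, 4.76% and 4.3% in experiments 1, 2 and 3. A lack of overlap within 1 experiment is therefore common. The log2 fold change was 2.02 (SE 0.35, adjusted p 0.218 in edgeR), with 1.86, 2.51 and 1.74 in experiments 1, 2 and 3. DESeq2 with the same block called it (adjusted p 0.000495), as did edgeR without DMSO library 3 of experiment 1 (0.042) or DMSO library 3 of experiment 3 (0.0473). Over its alternatives the adjusted p ran up to 0.544. The level averaged 1.24 ± 0.629 CPM in CBP30 libraries (SD, n = 11), 0.287 ± 0.201 CPM in DMSO libraries (n = 12) and 1.21 ± 0.712 CPM in fertilised ectoderm (n = 11). Both sets of donor endoderm were at 0.3 CPM or below. These levels rest on few reads, from 10 to 61 counts in CBP30 libraries and from 1 to 12 in DMSO libraries.

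XBmRNA65800 was at 0.139 to 3.68 CPM in CBP30 libraries (median 1.59), against 0.0563 to 1.24 CPM in DMSO libraries (median 0.223). The groups did not overlap in experiment 1 and overlapped in experiments 2 and 3. Its log2 fold change was 2.07 (SE 0.41, adjusted p 0.267 in edgeR), and DESeq2 with the same block called it (adjusted p 0.00133, up to 0.795 over its alternatives). In the edgeR fit with an effect for each experiment it was 3.355, 1.79 and 1.12 in experiments 1, 2 and 3. Only the effect in experiment 1 passed that test (adjusted p 0.0443). Fertilised ectoderm itself ran from 0.0545 to 18.6 CPM. Donor endoderm ranged as widely, from 0 to 51.5 CPM in CBP30 donors and from 0 to 30.6 CPM in DMSO donors.

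XBmRNA16724 and XBmRNA33038 were the lower pair, with smaller differences. One sign in all 3 experiments was part of the rule that named them. In experiments 1, 2 and 3 the log2 fold changes were -0.49, -0.60 and -0.30 for XBmRNA16724 and -0.26, -0.26 and -0.38 for XBmRNA33038. None passed edgeR's test in a single experiment (lowest adjusted p 0.262 and 0.379). XBmRNA16724 was at 3.68 to 8.61 CPM in CBP30 libraries, against 7.05 to 11.9 CPM in DMSO libraries (log2 fold change -0.46, SE 0.09, adjusted p 0.267). XBmRNA33038 was at 12.6 to 16.1 CPM in CBP30 libraries, against 14.7 to 18.7 CPM in DMSO libraries (log2 fold change -0.30, SE 0.06, adjusted p 0.267). DESeq2 with the same block called both, at an adjusted p of 0.000879 for XBmRNA16724 and 0.0011 for XBmRNA33038, and over the other alternatives the adjusted p ran up to 0.739 for each. For both, every CBP30 library lay below every DMSO library of its own experiment, although the ranges overlapped over all 23 libraries. Over all transcripts tested, 2 were lower and 1 higher in this way in each of the 3 experiments (0.0117%), and 0 were separated over all 23 libraries. In experiment 3 the 3 CBP30 libraries had 13.2, 13.1 and 13.1 CPM of XBmRNA33038, against 18.5, 18.5, 18.2, 16.2 and 14.7 CPM in the DMSO libraries and 18.2 to 23.6 CPM in fertilised ectoderm. In experiment 2 fertilised ectoderm, at 14 to 18.6 CPM, overlapped both NT groups. Fertilised levels of XBmRNA16724 were 8.1 to 9.19, 3.51 to 3.92 and 6.46 to 7.95 CPM in experiments 1, 2 and 3. In experiment 2 they lay on both sides of the lowest CBP30 library and below the other CBP30 libraries (3.68 to 5.99 CPM).

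**Figure D1:**
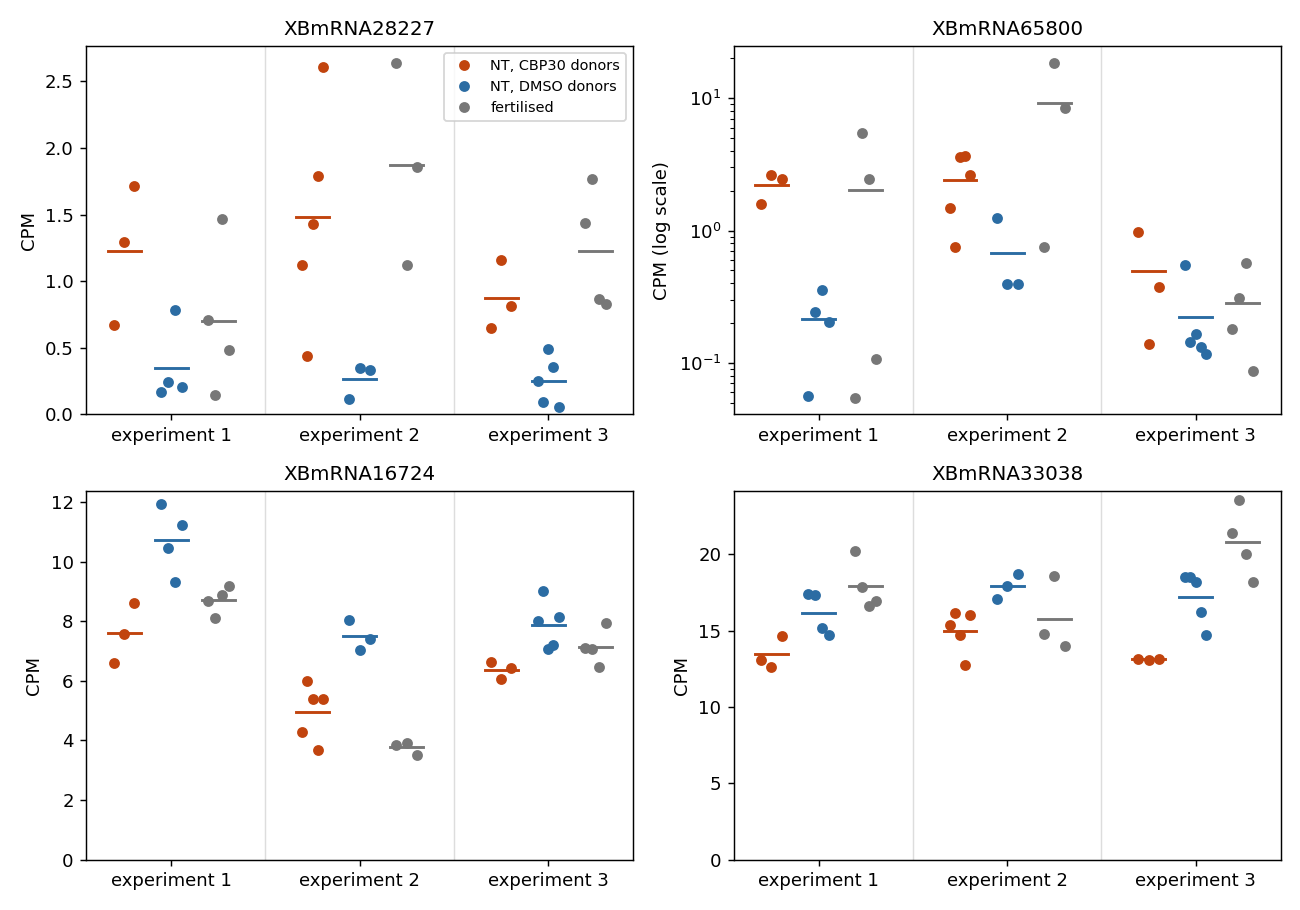
CPM of 4 transcripts in each library (points) with the mean of each group (lines), for NT ectoderm of CBP30 donors, NT ectoderm of DMSO donors and fertilised ectoderm in each experiment. The axis of XBmRNA65800 is logarithmic, and the CBP30 libraries of XBmRNA16724 and XBmRNA33038 lie below the DMSO libraries within every experiment.

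Within single experiments a small number of transcripts passed edgeR's test. One fit with a CBP30 effect for each experiment called 51 transcripts in experiment 1 (0.199% of 25668), 37 higher and 14 lower. In experiment 2 it called 25 (0.0974%), 10 higher and 15 lower, and in experiment 3 it called 14 (0.0545%), 7 in each direction. All but 1 of these calls reached 1 log2 unit, and the median absolute effects were 2.64, 2.16 and 3.10. The counts depended on single libraries. In experiment 1 they fell to 25 without DMSO library 2, 27 without DMSO library 3, 29 without DMSO library 4 and 29 without CBP30 library 2. In experiment 2 they fell to 6 and 7 without DMSO libraries 2 and 3, to 10 without CBP30 library 1, 4 or 5 and to 11 without CBP30 library 2. In experiment 3 the count was 32 without DMSO library 4 and 8 without CBP30 library 2. With a separate fit of each experiment the counts were 31, 18 and 5.

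The measured effects in one experiment had little relation to those in the next. Across the 25668 transcripts, which are not independent replicates, Spearman coefficients between the effects of 2 experiments were -0.0149 (1 and 2), 0.00161 (1 and 3) and -0.0418 (2 and 3). The median standard errors within experiments 1, 2 and 3 were 0.282, 0.268 and 0.269, above the median absolute effects of 0.17, 0.22 and 0.169. Measures over all transcripts therefore cannot tell unrelated effects from shared effects smaller than this error. The same sign in all 3 experiments was found for 5931 transcripts (23.1%), no more than unrelated effects would give. Of these, 26 reached a log2 fold change of 1 in the same direction in every experiment, 17 higher and 9 lower. How many would do so by chance was not computed. Of the 51 transcripts called in experiment 1, 4 were also called in experiment 2, and 2 of these moved the same way. Another 3 were called in experiments 1 and 3, of which 1 moved the same way, and 0 were called in both 2 and 3. Over all transcripts tested, 0.0974% were called in experiment 2 and 0.0545% in experiment 3. Calls of experiment 1 thus recurred more often than these shares, without a common direction. All calls come from 1 fit with a shared spread, so they are not independent.

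Transcripts found in 2 experiments were then followed in the experiment that had taken no part in finding them. The 16 transcripts called without experiment 3 included 13 that passed the filter over all 23 libraries, and 4 of these 13 moved the same way in experiment 3. Both transcripts called without experiment 2 moved the opposite way in experiment 2. With a looser limit, an unadjusted p under 0.05 with an effect of 1 log2 unit or more over 2 experiments, 127 of 247 transcripts moved the same way in experiment 1 (51.4%), against 48.6% of all transcripts tested. The corresponding shares were 121 of 243 in experiment 2 (49.8%, against 47.7% of all) and 171 of 312 in experiment 3 (54.8%, against 48% of all).

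The difference between experiments was itself tested. The interaction of treatment and experiment called 55 of 25668 transcripts (0.214%) in edgeR, and 1582 (6.16%) had an unadjusted p under 0.05. Of the 55, 52 had effects of opposite sign among the experiments, and the median range of their 3 log2 effects was 3.77. The effect was largest in experiment 1 for 30, in experiment 2 for 11 and in experiment 3 for 14. DESeq2's likelihood ratio test called 165, including all 55.

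Transcripts with this behaviour also varied between fertilised libraries, which had no part in the test. The largest spread between fertilised libraries of 1 experiment had a median of 2.43 on the log2 CPM scale for the 55 transcripts, against 0.85 for all 25668. It reached 3 log2 units for 18 of the 55 (32.7%), against 4.82% of all transcripts tested. Within an NT group of 1 experiment the 55 varied less, with medians of 1.28 in CBP30 libraries and 1.41 in DMSO libraries, a spread that the test itself favours. The corresponding medians over all transcripts were 0.98 and 1.02.

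Experiment 1 gave the transcript XBmRNA37978 as its strongest higher call. The CBP30 libraries had 1.95, 3.59 and 0.933 CPM (32, 75 and 18 counts), against 0 counts in all 4 DMSO libraries. Set against a floor of 3 counts over the DMSO libraries, the CBP30 level was at least 55.5-fold higher (adjusted p 5.07e-06 in edgeR). Fertilised ectoderm of the same experiment was also uneven, with 0, 0, 0.235 and 4.01 CPM. In experiment 2 the transcript was at 1.97 to 2.99 CPM in CBP30 libraries and 3.10 to 3.99 CPM in DMSO libraries, and in experiment 3 at 4.00 to 4.53 CPM in CBP30 libraries and 4.44 to 6.10 CPM in DMSO libraries. Its log2 fold changes there were -0.56 and -0.24, and neither passed the test.

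The strongest lower call of experiment 1, XBmRNA45979, had 0.427, 0.144 and 0.57 CPM in CBP30 libraries, against 5.13, 2.19, 2.93 and 7.30 CPM in DMSO libraries. The groups did not overlap, and the log2 fold change was -3.52 (SE 0.50, adjusted p 0.00237). Fertilised ectoderm of that experiment ran from 0.221 to 4.41 CPM, across the gap between the NT groups. In experiments 2 and 3 the NT groups overlapped, with log2 fold changes of -0.01 and -0.32. In a fit of experiment 1 alone neither transcript passed the test (adjusted p 0.123 for XBmRNA37978 and 0.112 for XBmRNA45979).

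In experiment 2 the leading higher transcript was XBmRNA38811, at 4.10, 4.54, 3.65, 6.61 and 4.88 CPM in CBP30 libraries, against 0.812, 0.838 and 0.66 CPM in DMSO libraries. The log2 fold change was 2.60 (SE 0.31, adjusted p 0.000664). Fertilised ectoderm, at 6.40, 8.96 and 10.3 CPM, lay above the DMSO libraries and above all but the highest CBP30 library. The effect was 1.23 in experiment 1, where the groups did not overlap either but the adjusted p was 0.150, and -0.64 in experiment 3 (adjusted p 0.845). Of all transcripts tested, 5.67% had no overlap in experiment 1.

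XBmRNA46350 fell in experiment 2 and also in experiment 1. In experiment 2 it was at 1.18, 1.89, 1.85, 0.704 and 2.61 CPM in CBP30 libraries, against 8.32, 13.6 and 13.7 CPM in DMSO libraries (log2 fold change -2.83, SE 0.33, adjusted p 0.000664). In experiment 1 it was at 1.04, 0.766 and 1.09 CPM in CBP30 libraries, against 8.17, 5.71, 5.80 and 4.53 CPM in DMSO libraries (log2 fold change -2.64, SE 0.39, adjusted p 0.00325). The NT groups were apart in both experiments. Fertilised ectoderm did not lie on one side: it was at 7.34 to 11.6 CPM in experiment 1, overlapping the DMSO libraries or above them, and at 2.15 to 5.56 CPM in experiment 2, below all DMSO libraries. In experiment 3 all ectoderm was low, at 0.926 to 1.46 CPM in CBP30 libraries, 0.483 to 1.34 CPM in DMSO libraries and 1.39 to 2.88 CPM in fertilised ectoderm, and the log2 fold change of 0.35 did not pass the test.

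In experiment 3 XBmRNA17752 was at 7.82, 10.1 and 12.8 CPM in CBP30 libraries, against 1.01, 0.434, 0.70, 0.31 and 0.638 CPM in DMSO libraries. The log2 fold change was 4.04 (SE 0.29, adjusted p 2.79e-07), the smallest adjusted p of any single experiment. Its level differed between experiments more than between treatments: in experiment 1 it was at 16.4 to 19 CPM in CBP30 libraries and 8.34 to 11.7 CPM in DMSO libraries, and in experiment 2 no NT library exceeded 0.858 CPM. Fertilised libraries of experiment 3 had 1.08, 13.5, 3.79 and 0.961 CPM, from within the range of the DMSO libraries to above the highest CBP30 library.

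The lower transcript of experiment 3, XBmRNA45981, had 0.539, 0.556 and 0.312 CPM in CBP30 libraries, against 5.76, 3.76, 2.67, 4.51 and 6.79 CPM in DMSO libraries and 3.94 to 5.22 CPM in fertilised ectoderm. The log2 fold change was -3.28 (SE 0.35, adjusted p 4.29e-05). All CBP30 libraries of experiment 1 also lay below its DMSO libraries, with a log2 fold change of -0.87 that did not pass the test (adjusted p 0.566). Among all 25668 transcripts, 691 were lower in this way in experiment 1. In experiment 2 the groups overlapped, with a log2 fold change of -0.30. Fitted alone, experiment 3 gave an adjusted p of 0.0681 for this transcript.

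**Figure D2:**
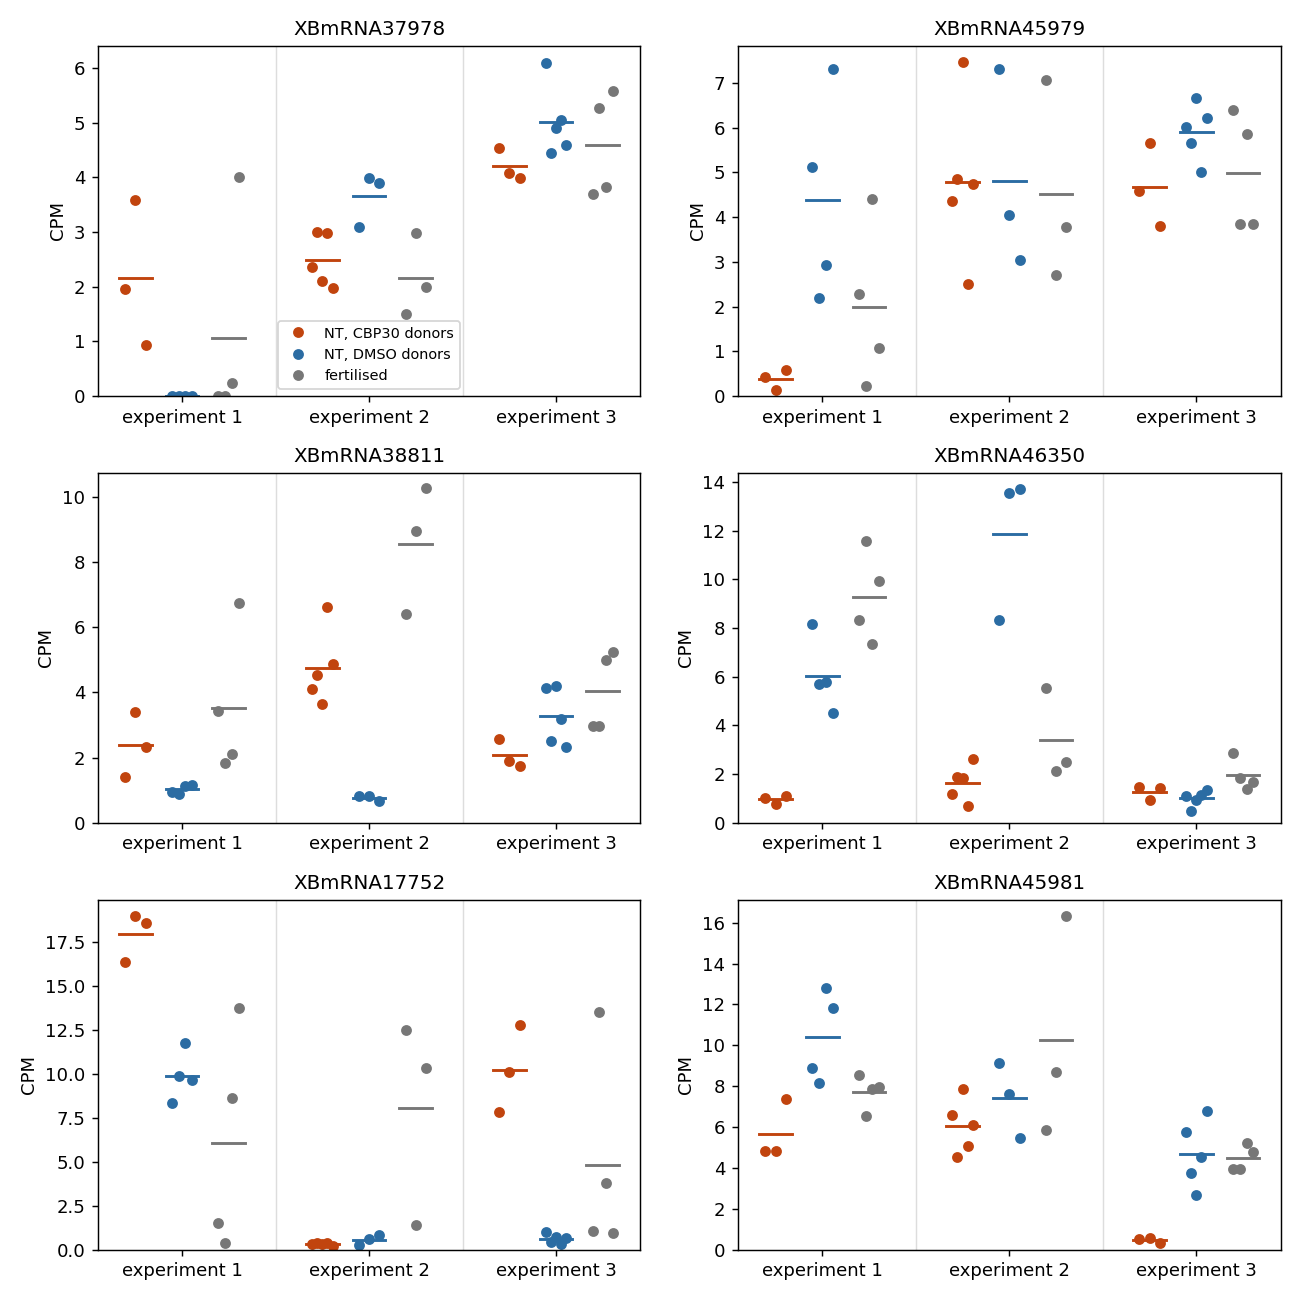
CPM of the leading higher (left) and lower (right) transcript of experiments 1, 2 and 3 (top to bottom) in each library (points), with group means (lines). Each pair of NT groups is apart in the experiment that named the transcript, which naming by the smallest p favours. Fertilised libraries of the naming experiment run across the gap between the NT groups for XBmRNA37978, XBmRNA45979 and XBmRNA17752.

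Over the called transcripts, the fertilised mean of the same experiment lay between the means of the NT groups for 35 of 51 in experiment 1, 8 of 25 in experiment 2 and 12 of 14 in experiment 3. Over all transcripts tested this was so for 5801, 3520 and 5008 of 25668. Called transcripts were selected for a wide gap between the NT means, where a fertilised mean falls more often by construction. The contrast with all transcripts is therefore set at least in part by the selection. A nearer set holds transcripts with an unadjusted p under 0.05 and an effect of 1 log2 unit or more in that experiment. In this set the fertilised mean lay between for 368 of 589, 211 of 562 and 305 of 543. Donor endoderm of the same experiment, from other libraries, was compared in sign. Its CBP30 effect matched the NT sign for 26 of the 51, 5 of the 25 and 7 of the 14 called transcripts. Over all transcripts tested, the signs matched for 52%, 51.8% and 48.6%. No minimum donor level was required, so these counts include transcripts without a donor difference, whose sign carries no information. A donor difference of exactly 0 was counted as no match. The median donor effect of the called transcripts, taken in the direction of the NT effect, was 1.33e-15, -0.477 and 0 log2 units. Across transcripts the NT effect and the donor effect had Spearman coefficients of 0.0496, 0.0154 and -0.0448 in experiments 1, 2 and 3 (25668 transcripts, with 2, 2 and 1 CBP30 donor libraries against 2 DMSO donor libraries each). The only CBP30 donor library of experiment 3 had 55.8% of its counts in its 50 most counted transcripts. The other donor libraries had 18.8% to 27%, and the donor effect of experiment 3 rests on that library.

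How far each NT library lay from fertilised ectoderm was measured next, over 26868 transcripts and against the fertilised libraries of the same experiment. Each fertilised library was measured in the same manner against the others of its experiment, so against 1 library fewer. The root mean square log2 CPM difference averaged 0.865 ± 0.129 in CBP30 libraries (SD, n = 11), 0.821 ± 0.191 in DMSO libraries (n = 12) and 0.626 ± 0.108 in fertilised libraries (n = 11). By library, CBP30 libraries lay at 0.786, 0.738 and 0.697 in experiment 1, at 1.02, 1.02, 1.08, 0.814 and 0.854 in experiment 2 and at 0.916, 0.821 and 0.761 in experiment 3. DMSO libraries lay at 0.86, 0.68, 0.656 and 0.706 in experiment 1, at 1.20, 1.00 and 1.01 in experiment 2 and at 0.658, 0.651, 0.656, 0.756 and 1.02 in experiment 3. NT libraries of both treatments were farthest on average in experiment 2, and the treatments overlapped in every experiment. Fertilised libraries were also farthest from the others of their experiment there, at a mean of 0.757, against 0.588 in experiment 1 and 0.565 in experiment 3. Experiment 2 had 3 fertilised libraries, and experiments 1 and 3 had 4 each.

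Treatment did not shift this distance detectably. With labels exchanged within experiments, the difference between CBP30 and DMSO was -0.00482 (95% interval -0.109 to 0.0989), with an exact two-sided permutation p of 0.924. The interval is wide beside the gap between the mean distance of DMSO libraries (0.821) and that of fertilised libraries (0.626). A shift by a part of that gap is therefore not excluded. The mean Spearman correlation with fertilised libraries was 0.937 ± 0.0183 in CBP30 libraries, 0.942 ± 0.0259 in DMSO libraries and 0.966 ± 0.00789 in fertilised libraries. The blocked difference between CBP30 and DMSO was 0.00247 (95% interval -0.0106 to 0.0159, exact permutation p 0.703). Adjusted over the 4 distance measures, p was 0.924 for each.

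The number of transcripts at least 2-fold away from the fertilised mean gives the same comparison in countable form. CBP30 libraries had 4632 ± 1479 such transcripts, DMSO libraries 4208 ± 2074 and fertilised libraries 2296 ± 786. The fertilised mean was 2076, 3277 and 1781 in experiments 1, 2 and 3. Within experiments CBP30 libraries differed from DMSO libraries by -182 transcripts (95% interval -1204 to 840, exact permutation p 0.72). Among CBP30 libraries the counts were 4028, 3297 and 2937 in experiment 1, 6575, 6116, 7338, 3919 and 4832 in experiment 2 and 4996, 3679 and 3230 in experiment 3. DMSO libraries had 4724, 2842, 2555 and 2878 in experiment 1, 8908, 6385 and 6455 in experiment 2 and 2586, 2596, 2690, 3180 and 4692 in experiment 3. The CBP30 library nearest to fertilised ectoderm by this count, number 3 of experiment 1 with 2937 transcripts, lay above the highest fertilised library of that experiment (2646).

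By experiment the direction differed. The mean number in CBP30 libraries minus that in DMSO libraries was 171 in experiment 1, -1493 in experiment 2 and 820 in experiment 3, with exact permutation p-values of 0.743, 0.214 and 0.25. The smallest p these designs allow is 0.0286 in experiment 1 and 0.0179 in experiments 2 and 3. A permutation test of whether the 3 differences vary gave an exact p of 0.113 (adjusted over the 4 measures 0.355). Without experiment 2 the blocked difference was 517 transcripts, and without experiment 3 it was -717. Single libraries moved the values within experiments too. In experiment 1 the difference was 662 without DMSO library 1 and -133 without CBP30 library 1, and in experiment 2 it was -664 without DMSO library 1. In experiment 3 it was 306 without CBP30 library 1 and 1205 without DMSO library 5, where the unadjusted exact permutation p was 0.0286, the smallest that 3 against 4 libraries allow.

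**Figure D3:**
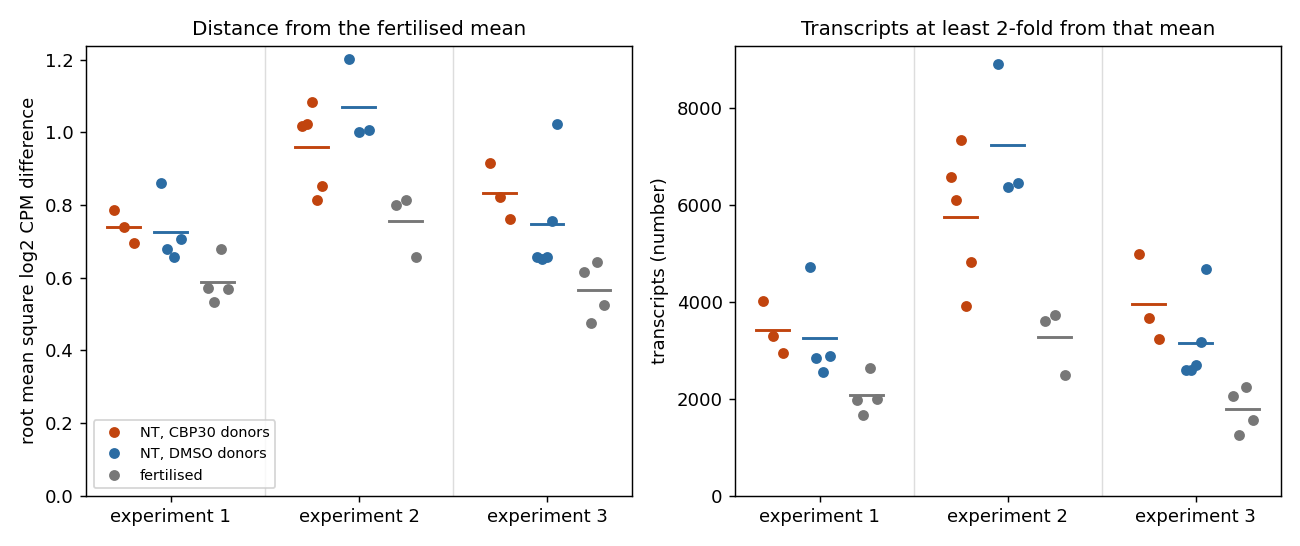
Distance of each library (points, with group means as lines) from the fertilised mean of its experiment: left, the root mean square log2 CPM difference over 26868 transcripts, and right, the number of transcripts at least 2-fold away. NT libraries of both treatments overlap in each experiment, reach up to 8908 transcripts in experiment 2, and lie above most fertilised libraries.

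Distance can lie in any direction, so the position of each library was also taken along the line from fertilised ectoderm, set to 0, to the DMSO donor endoderm, set to 1. The ends of this line differ in stage as well as in tissue, and the position does not separate them. CBP30 libraries lay at 0.0211 ± 0.0263 (n = 11), DMSO libraries at 0.0337 ± 0.0514 (n = 12) and fertilised libraries at 0 ± 0.0181 (n = 11). The donor libraries, of both treatments, lay at 0.884 to 1.08. By library, CBP30 libraries lay at 0.0373, 0.0138 and 0.0333 in experiment 1, at -0.00846, -0.011, 0.000965, 0.0349 and -0.0172 in experiment 2, and at 0.0584, 0.0449 and 0.0446 in experiment 3. The farthest CBP30 library thus lay at 0.0584 of the line towards the donor, and the 3 CBP30 libraries of experiment 3 lay above every fertilised library of that experiment (highest 0.0212). DMSO libraries lay at 0.009, 0.0263, 0.0315 and 0.0868 in experiment 1 and at 0.00459, 0.000326 and -0.0264 in experiment 2. In experiment 3 they lay at 0.0408, 0.0097, 0.00356, 0.049 and 0.169. DMSO libraries 1, 4 and 5 of experiment 3 thus also lay above every fertilised library of that experiment.

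CBP30 and DMSO libraries differed in this position by -0.00246 (95% interval -0.034 to 0.0266, exact permutation p 0.894). Without DMSO library 5 of experiment 3 the difference was 0.00676 (exact permutation p 0.491). Experiment 2, whose NT libraries lay farthest from fertilised ectoderm by the root mean square, had group means of -0.000143 in CBP30 libraries and -0.00715 in DMSO libraries on this line. Experiment 3, with smaller distances, had 0.0493 in CBP30 libraries and 0.0544 in DMSO libraries.

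**Figure D4:**
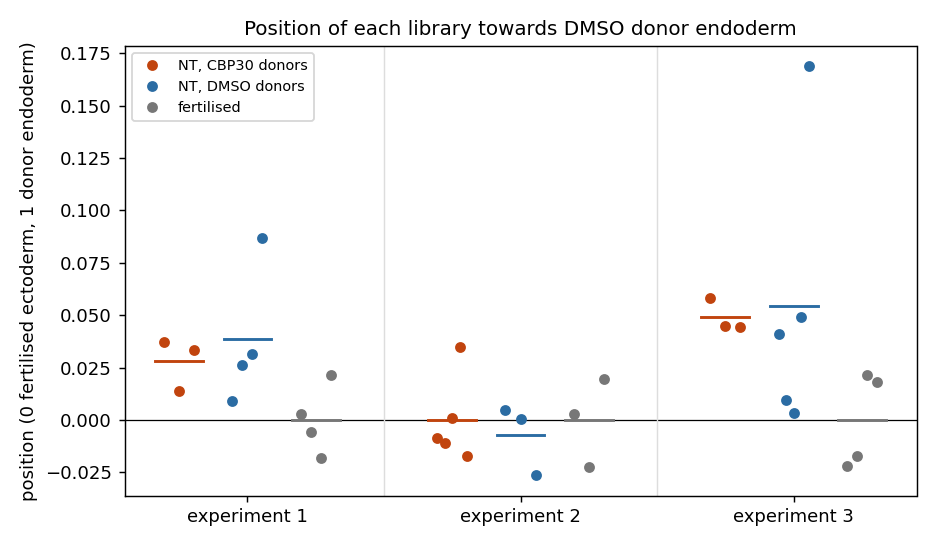
Position of each library (points, with group means as lines) on the line from fertilised ectoderm (0) to DMSO donor endoderm (1), by experiment. CBP30 libraries run from -0.0172 to 0.0584, and 1 DMSO library of experiment 3 stands at 0.169.

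NT libraries of the same treatment were not more alike than libraries of different treatment in every experiment. The median root mean square difference between pairs of CBP30 libraries was 0.677 in experiment 1 (3 pairs), 0.735 in experiment 2 (10 pairs) and 1.06 in experiment 3 (3 pairs). Between DMSO libraries it was 0.788, 0.764 and 0.827. Between a CBP30 and a DMSO library it was 0.825, 0.820 and 0.838, which in experiment 3 is below the value between CBP30 libraries.

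Transcripts that differed between donor endoderm and fertilised ectoderm had median CBP30 effects close to that of all transcripts. The donor endoderm was of stage 18 and the ectoderm of stage 11, so the lists mix differences of stage and of tissue. Lists were made without any NT library: 6654 transcripts were higher and 6453 lower in DMSO donor endoderm than in fertilised ectoderm, called with a difference of 1 log2 unit or more. Of the endoderm-high list, 5403 passed the filter on low counts in NT ectoderm, and their median CBP30 effect was -0.009 on the log2 scale, with 52.1% lower. Of the ectoderm-high list 6372 passed, with a median of -0.013 and 53.4% lower. All transcripts tested had a median of -0.010 and 52.9% lower, and 0 members of either list were called in the blocked edgeR fit, with 5.53% and 6.06% at an unadjusted p under 0.05 beside 5.86% of all. In single experiments the medians of the endoderm-high list were -0.03, -0.03 and 0.03, and those of the ectoderm-high list 0.02, -0.02 and -0.02.

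A sharper list holds the transcripts that nuclear transfer itself leaves off their fertilised level. For each experiment, transcripts called between DMSO NT and fertilised ectoderm in the other 2 experiments, with a difference of 1 log2 unit or more, were taken as NT-high or NT-low. No library of the experiment described helped to make its list. In experiment 1, 1249 NT-high transcripts had a median CBP30 effect of 0.10 and 39.2% were lower in CBP30 libraries. In experiment 2, 405 NT-high transcripts had a median of -0.40 with 83.2% lower, and in experiment 3, 1174 had a median of 0.13 with 30.2% lower. All transcripts tested had medians of -0.01, -0.02 and 0.00, with 51.7%, 52.9% and 49.2% lower. These directions rested on single libraries. In experiment 2 the median was 0.08 without DMSO library 1 (44% lower), and in experiment 3 it was -0.23 without CBP30 library 1 (80.6% lower). In experiment 1 it was -0.04 without CBP30 library 1, -0.01 without DMSO library 4, 0.02 without DMSO library 3, and 0.19 and 0.28 without CBP30 library 2 and DMSO library 1.

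NT-low transcripts did not give a common direction either. Their median CBP30 effect was -0.34 in experiment 1 (479 transcripts, 72.7% lower), 0.14 in experiment 2 (147 transcripts, 42.2% lower) and 0.08 in experiment 3 (381 transcripts, 44.4% lower). The experiment 1 value stayed negative without any 1 of its 7 libraries, between -0.55 and -0.17. In experiment 2 it was -0.09 without CBP30 library 4 and 0.01 without DMSO library 1, and in experiment 3 it was -0.04 without CBP30 library 1. With no minimum fold change for the lists, the experiment 3 value was -0.02. In experiments 1, 2 and 3, where 0.199%, 0.0974% and 0.0545% of all transcripts were called, the called members were 4 of 1249, 0 of 405 and 1 of 1174 for the NT-high lists. For the NT-low lists they were 0 of 479, 1 of 147 and 0 of 381. The lists of 2 experiments share libraries, and members move together within a library, so these counts are not independent.

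Library by library the lists overlapped between treatments. In experiment 2 the mean level of NT-high transcripts over the fertilised mean was 1.44 ± 0.397 log2 units in CBP30 libraries (n = 5, range 0.994 to 2.07), against 1.72 ± 0.542 in DMSO libraries (n = 3, range 1.22 to 2.29). In experiment 1 it was 0.892 ± 0.233 in CBP30 libraries (n = 3), against 0.663 ± 0.415 in DMSO libraries (n = 4), and in experiment 3 it was 0.798 ± 0.451 in CBP30 libraries (n = 3), against 0.742 ± 0.131 in DMSO libraries (n = 5). All 23 NT libraries had a positive mean for their NT-high list. For NT-low transcripts the means were -0.802, -1.18 and -0.574 in CBP30 libraries, against -0.582, -1.25 and -0.658 in DMSO libraries, in experiments 1, 2 and 3. The differences between treatments were smaller than the SD of the more variable group in each case.

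**Figure D5:**
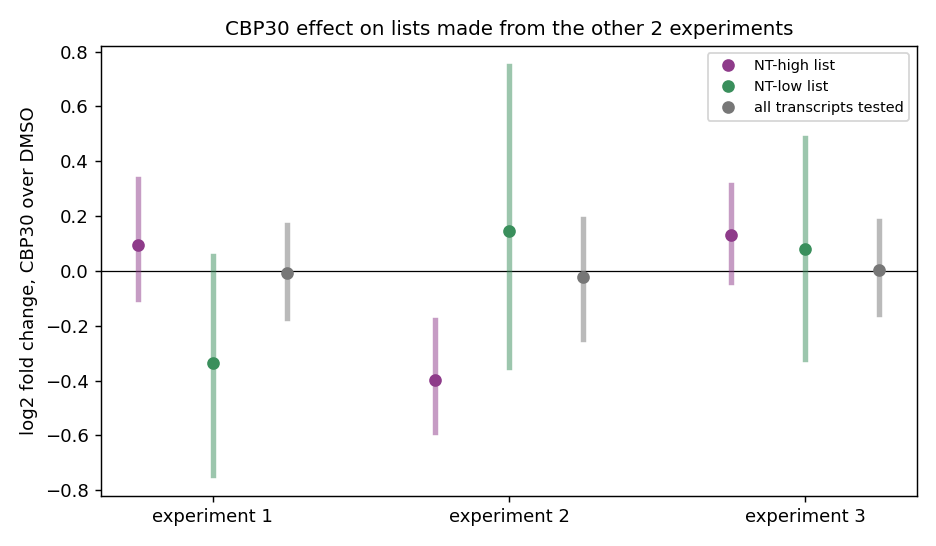
Median log2 fold change of CBP30 over DMSO NT ectoderm (points) with the quartiles over transcripts (bars) for NT-high and NT-low lists made from the other experiments, and for all transcripts tested. The NT-high median is -0.40 in experiment 2 (0.08 without DMSO library 1) and 0.10 and 0.13 in experiments 1 and 3 (-0.23 in experiment 3 without CBP30 library 1).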

How the data were processed

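Polyadenylated RNA was sequenced from ectoderm (400 ng per library, paired reads of 50 bases), per the labels' protocols. The deposited values are expected counts per transcript, 72076 transcripts in each of 45 tables, and 30.6% of them are not whole. The submitters' processing notes name kallisto 0.48, R 4.3.1 and DESeq2 1.40.2. The genome build and annotation are not given in the sources used here. No identifier was found in the RefSeq gene table at hand. No 2 libraries were identical.

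Expected counts were rounded to whole numbers. The fits used edgeR 4.0.16 under R 4.3.3, with filterByExpr, TMM scaling, the quasi-likelihood F test (two-sided) and Benjamini-Hochberg adjustment at 0.05. Experiment, numbered in the sample titles, was the block. Deviations of CBP30 and DMSO group means with the same number correlated at 0.611, 0.678 and 0.623. Effects per experiment came from a single fit with a shared spread. DESeq2 1.42.0 was an alternative. Distances used log2 CPM with a prior count of 2 and exact permutation of labels within experiments (109760 arrangements). Scripts were tested on simulated data.

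The members, lists and rules were chosen with earlier results of these data known. Transcripts were named by rule: for the blocked fit the 2 higher and 2 lower with the smallest p among those with the same sign in all 3 experiments, and for each experiment the higher and the lower with the smallest p. Alternatives were other scalings, filters, tools, list limits, no block, and leaving out each library or experiment. Summing transcripts per gene was not run, because the identifiers do not name a gene.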

Additional observations from a re-analysis of the deposited data

Results flagged for a closer look

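Of 41 sets of 4 or 5 NT libraries of the same treatment and experiment examined for a library far from the others, 7 held one, where chance gives about 1 in 20. The 41 sets are not independent, since the distance measures use the same transcripts. DMSO library 5 of experiment 3 stood apart in all 4 distance measures: its root mean square log2 difference from fertilised ectoderm was 1.02, its mean Spearman correlation 0.921, its number of transcripts at least 2-fold away 4692 and its position towards donor endoderm 0.169. DMSO library 1 of experiment 1 had 4724 transcripts at least 2-fold away, where the other DMSO libraries of that experiment had 2555 to 2878. DMSO library 3 of experiment 1 had 0.787 CPM of XBmRNA28227, where the others had 0.169 to 0.244 CPM. Without it this transcript passed the test with the experiment as block (adjusted p 0.042). DMSO library 1 of experiment 3 had 0.547 CPM of XBmRNA65800, where the others had 0.116 to 0.165 CPM.

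The CBP30 effect differed between experiments, by the interaction test in edgeR, for the 6 transcripts named from single experiments. The adjusted p of the interaction was 1.84e-05 for XBmRNA37978, 0.0187 for XBmRNA45979, 0.00185 for XBmRNA38811, 0.00395 for XBmRNA46350, 2.82e-05 for XBmRNA17752 and 0.00518 for XBmRNA45981. They were named for their effect in an experiment, so this is partly what chose them. XBmRNA46350 is called in experiments 1 and 2 and differs from them in experiment 3.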

How the results depend on the processing

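Across all experiments the count of called transcripts was 0 with no replicate block, as with it (smallest adjusted p 0.0557), and it was also 0 with median-ratio scaling, without experiment 1 and where every library had to have 10 counts. It was 7 with no filter on low counts, 46 with the DESeq2 Wald test, 2 without experiment 2, 16 without experiment 3, and 0 to 2 without single libraries (1 without DMSO library 3 of experiment 1 or library 4 of experiment 3, 2 without DMSO library 3 of experiment 3). The interaction gave 165 calls with DESeq2, 21 with that stricter filter and 43 to 70 without single libraries. Experiment 1 gave 23 calls with the stricter filter, 31 fitted alone and 25 to 69 without single libraries. Experiment 2 gave 6 to 34 without single libraries. Experiment 3 gave 30 calls with no filter, 5 with the stricter filter, 5 fitted alone and 8 to 32 without single libraries. The causes were not tested.

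The distance differences had no stable sign, and over the 3 experiments the lowest exact permutation p was 0.266. With no replicate block the difference between CBP30 and DMSO was 0.0436 for the root mean square, -0.0048 for the Spearman correlation and 424 transcripts. Without experiment 2 it was 0.0519, -0.00469 and 517, and without experiment 1 the position differed by 0.000968. Without single libraries the ranges were -0.0221 to 0.0211, -0.00183 to 0.00419, -391 to 141 and -0.00638 to 0.00676. DMSO library 1 of experiment 2 turned the sign of the first 3 measures. Leaving out single libraries within experiments was added after seeing the data. The difference in transcripts at least 2-fold away then ran from -133 to 662 in experiment 1, from -1926 to -664 in experiment 2 and from 306 to 1205 in experiment 3, and the NT-high median from -0.04 to 0.28, from -0.62 to 0.0829 and from -0.23 to 0.30.

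Summing transcripts per gene was not run. Transcripts at a few counts per library, such as XBmRNA28227, carry a large counting error.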
